A study of Mus musculus with 12 samples.

Results

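Sonic hedgehog (Shh) receptors, their intracellular relays and the Gli transcription factors were followed in the external granule layer of the mouse cerebellum, as 9 genes chosen by name: the receptor Ptch1, the co-receptors Boc and Gas1, the decoy receptor Hhip, the transducer Smo, the inhibitor Sufu, and Gli1, Gli2 and Gli3. Each symbol matched exactly 1 of the 53379 gene rows of the count tables. The layer was cut by laser capture from the central lobules at postnatal day 6, in C57BL/6 mice that were conditional knockouts for SnoN (written KO) and in wild-type control littermates (WT). SnoN, encoded by Skil, is a transcriptional regulator that binds SMAD proteins. The labels name neither the Cre driver nor the deleted exons, and nothing in them ties libraries to separate animals, so the p-values cover variation among these libraries, some of which may be technical. There were 6 KO libraries (2, 3, 4, 5, 6 and 8) and 6 WT libraries (1, 2, 3, 5, 6 and 7), with 7520076 to 15083086 gene counts each. KO4 and WT2 were marked by the submitters as outliers, so the comparison used 5 KO and 5 WT libraries and the marked pair is given beside it. KO2 carries a wild-type genotype tag but a knockout title, and the title was followed. Skil stood at 20.9 to 36.7 TMM-scaled CPM (CPM, counts scaled to a common library size) in the 5 KO libraries, against 38.5 to 57.8 CPM in the 5 WT libraries, with KO2 at 36.1 CPM, KO4 at 14.01 CPM and WT2 at 76.5 CPM. Its log2 fold change of KO over WT was -0.70 (SE 0.15, edgeR adjusted p = 0.124, two-sided exact permutation p = 0.00794).

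Shh is released by Purkinje cells and drives the division of granule neuron precursors in this layer. Ptch1 holds Smo inactive until the ligand binds, with Boc and Gas1 helping to present the ligand. Active Smo at the primary cilium releases Gli proteins from Sufu; Gli2 is the main activator, Gli3 acts mostly as a repressor, and Gli1, Ptch1 and Hhip are themselves transcriptional targets, so that Ptch1 and Hhip feed back to dampen the signal.

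All 9 genes were detected. Per kb of annotated exon, Smo was highest, at 17.7 ± 3.20 CPM per kb in KO and 22.1 ± 2.22 CPM per kb in WT (SD, n = 5 each, here and below). Its range overlapped those of Boc and Gas1 in KO, but not that of any other gene in WT. In KO3 Boc was at 16.8 and Smo at 15.1 CPM per kb, and in KO5 Gas1 was at 15.3. Boc (15.3 ± 2.14 in KO, 13.5 ± 1.38 in WT) and Gas1 (13.0 ± 1.59 in KO, 13.9 ± 2.49 in WT) followed, and their library ranges overlapped each other in both groups. The next tier held Ptch1 (6.16 ± 1.97 CPM per kb in KO, 4.97 ± 0.521 in WT), Gli2 (5.10 ± 0.563 in KO, 5.33 ± 1.02 in WT), Sufu (3.88 ± 0.306 in KO, 5.14 ± 0.628 in WT) and Gli1 (3.78 ± 0.818 in KO, 3.98 ± 0.511 in WT). Within that tier every gene overlapped its neighbour in the order, in both groups. Gli3, at 0.609 ± 0.137 CPM per kb in KO and 0.590 ± 0.0733 in WT, lay below all of these without overlap, and Hhip was lowest at 0.129 ± 0.0487 in KO and 0.148 ± 0.126 in WT. The activator Gli2 therefore stood at 6.67 to 11.4 times the length-scaled level of Gli3 in the KO libraries and at 8.26 to 9.85 times in the WT libraries. Hhip rested on only 5 to 27 counts per library, whereas each of the other 8 genes except Gli3 had at least 162.

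**Figure D1:**
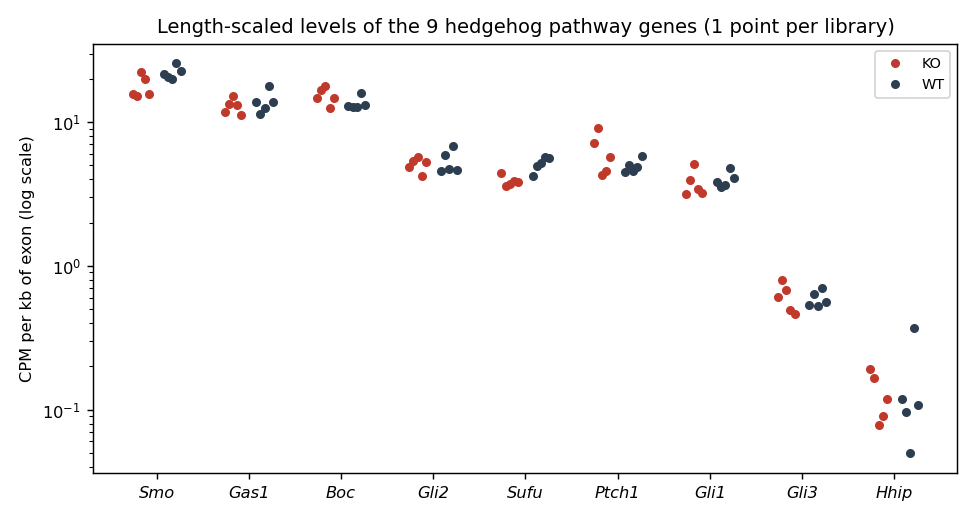
Length-scaled level of each gene (TMM-scaled CPM per kb of exon, log axis), 1 point per library, with the 5 KO libraries left of the 5 WT libraries for each gene. Smo, Gas1 and Boc form the top tier, Gli2, Sufu, Ptch1 and Gli1 a second, and Gli3 and Hhip lie below.

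None of the 9 genes passed the comparison of KO with WT. In edgeR's quasi-likelihood test across 13442 genes, 0 of the 9 had a Benjamini-Hochberg adjusted p under 0.05, against 3 of all genes tested (0.0223%). An unadjusted p under 0.05 was reached by 21.8% of all genes. By that measure 2 of the 9 were lower in KO (Sufu and Smo) and 0 were higher, beside 9.97% of all genes lower and 11.8% higher. The median log2 fold change of the 9 genes was -0.07, beside 0.0013 over all genes tested. DESeq2 called 1 of the 9, Sufu, where it called 4.71% of the genes it gave an adjusted p, and it gave none to Gli3 and Hhip. In the edgeR fit the 95% interval of the KO level relative to WT ran from 0.758 to 1.19 for Gli1. It ran from 0.790 to 1.17 for Gli2 and from 0.765 to 1.40 for Gli3. Fewer cells of a type and less RNA per cell cannot be told apart in such bulk samples. In none of the 9 were the KO and WT libraries fully apart, which held for 2.35% of all genes tested.

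**Figure D2:**
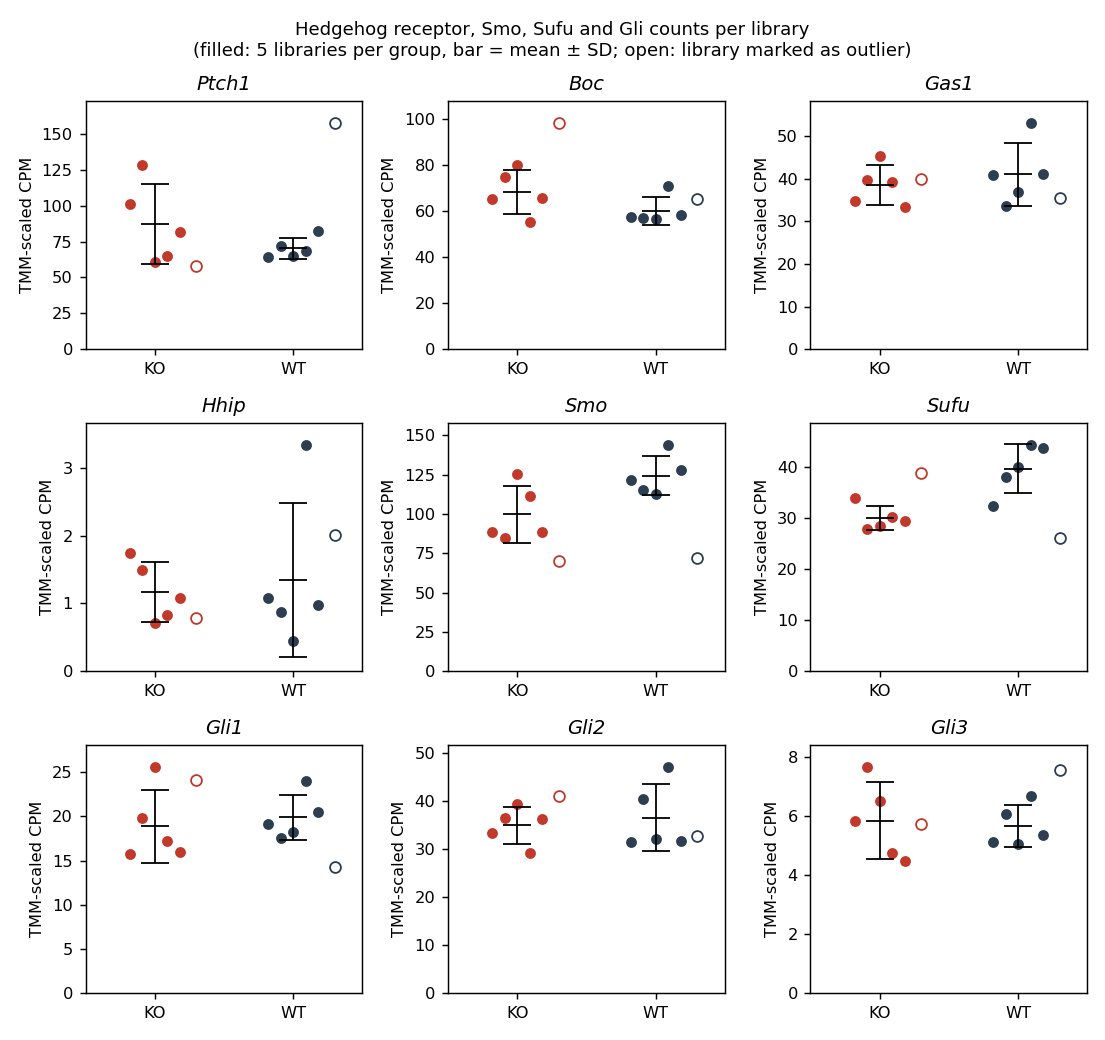
TMM-scaled CPM of each gene in each library, KO left and WT right in each panel; filled points are the 5 libraries per group in the comparison, bars their mean ± SD, and open points the libraries marked as outliers (KO4, WT2). Sufu and Smo have most KO points below the WT points, and in Sufu the open points have the opposite order.

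Among the cell surface proteins, Ptch1, the Shh receptor that is also its target (ENSMUSG00000021466.12, chromosome 13, 63508328 to 63573598 in GRCm38, minus strand), had wide scatter between KO libraries (SD 27.9 CPM in KO, 7.39 CPM in WT). It had 101, 128, 61.0, 64.9 and 81.5 CPM in KO libraries 2, 3, 5, 6 and 8, against 64.2, 71.7, 65.3, 68.7 and 82.7 CPM in WT libraries 1, 3, 5, 6 and 7. KO2 and KO3 stood above every WT library in the comparison, KO5 below them all, and the other KO libraries within the WT range. The log2 fold change was 0.31 (SE 0.17, adjusted p = 0.287, two-sided exact permutation p = 0.286 on log2 of CPM plus 1). KO4 and WT2 were ordered the other way, with 58.3 CPM in KO4 and 158 CPM in WT2, and including them turned the log2 fold change to -0.04 (adjusted p = 0.999); of the 9 genes 0 passed in that fit, beside 0.00751% of all genes. Without KO5 it was 0.42 with an adjusted p of 0.0423, in a fit in which 22.9% of all genes passed, and with GC trends also removed it was 0.39 and did not pass (adjusted p = 0.0752). Without KO3, the highest KO library, it was 0.13 (adjusted p = 0.672), and with KO2 counted as wild type 0.15 (adjusted p = 0.844).

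Boc, a co-receptor of the immunoglobulin superfamily (ENSMUSG00000022687.12, chromosome 16, 44485049 to 44558897, minus strand), had a higher mean in KO. Its values were 65.3, 75.0, 80.0, 55.4 and 65.9 CPM in KO libraries 2, 3, 5, 6 and 8, against 57.4, 56.9, 56.5, 70.9 and 58.3 CPM in WT libraries 1, 3, 5, 6 and 7. KO3 and KO5 lay above every WT library, KO2 and KO8 above all but WT6, and KO6 below them all. The log2 fold change of 0.19 (SE 0.11) did not pass (adjusted p = 0.340, exact permutation p = 0.127). KO4 was higher still at 98.3 CPM, with WT2 at 65.5 CPM. Over all 21 alternative settings the log2 fold change of Boc stayed positive, from 0.11 to 0.35. With GC trends removed and KO5 left out it passed, at 0.35 (adjusted p = 0.0344), in a fit in which 11.8% of all genes passed; with KO5 kept in that fit it had an adjusted p of 0.177.

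Gas1, a membrane-anchored co-receptor (ENSMUSG00000052957.8, chromosome 13, 60174405 to 60177365, minus strand), averaged 38.5 ± 4.70 CPM in KO and 41.0 ± 7.36 CPM in WT. The KO libraries ran from 33.4 to 45.3 CPM and the WT libraries from 33.5 to 53.0 CPM. WT6 lay above every KO library, and the other WT libraries of the comparison lay within the KO range. The log2 fold change was -0.09 (SE 0.13, adjusted p = 0.706), and it turned to 0.01 without WT6, the highest library. Hhip, which sequesters the ligand (ENSMUSG00000064325.4, chromosome 8, 79965851 to 80058006, minus strand), was near the limit of this depth. It had 0.713 to 1.75 CPM in KO and 0.450 to 3.34 CPM in WT, a log2 fold change of -0.14 with an SE of 0.49 (adjusted p = 0.887). The 95% interval of its fold, 0.442 to 1.86 times the WT level, was the widest of the 9. Its sign turned without WT6, which held the highest value (log2 fold change 0.45).

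Smo, the receptor-like transducer (ENSMUSG00000001761.7, chromosome 6, 29735503 to 29761365, plus strand), had a lower mean in KO. Its values were 88.6, 84.8, 126, 111 and 88.3 CPM in KO libraries 2, 3, 5, 6 and 8, against 122, 115, 113, 144 and 128 CPM in WT libraries 1, 3, 5, 6 and 7. Each KO library except KO5 lay below every WT library. The log2 fold change was -0.32 (SE 0.12, unadjusted p = 0.0174, adjusted p = 0.162, exact permutation p = 0.0556). Both marked libraries were lower than any of these, 70.3 CPM in KO4 and 71.7 CPM in WT2. Without KO5 the log2 fold change was -0.41 and passed (adjusted p = 0.00772), again where 22.9% of all genes did; with GC trends also removed it was -0.18 and did not pass (adjusted p = 0.186). With KO2 counted as wild type it was -0.20 (adjusted p = 0.792).

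Sufu, the cytoplasmic protein that binds and restrains Gli factors (ENSMUSG00000025231.16, chromosome 19, 46396896 to 46488804, plus strand), had the smallest p of the 9 genes and overlaps no other annotated gene. It had 33.8, 27.8, 28.3, 30.1 and 29.3 CPM in KO libraries 2, 3, 5, 6 and 8, against 32.3, 37.9, 39.9, 44.2 and 43.6 CPM in WT libraries 1, 3, 5, 6 and 7. KO2 lay above WT1, and the other KO libraries lay below every WT library. The means were 29.9 ± 2.35 CPM in KO and 39.6 ± 4.83 CPM in WT, or -0.40 as log2 fold change (SE 0.12, unadjusted p = 0.00276). The adjusted p of 0.131 did not pass, although the exact permutation p of 0.0159 lay near the smallest that 5 against 5 libraries can give, 0.00794. DESeq2 gave Sufu an adjusted p of 0.0415, and edgeR without KO5 gave 0.0245, where 22.9% of all genes passed. With KO5 left out and GC trends removed, the log2 fold change was -0.18 and did not pass (adjusted p = 0.364). KO4 and WT2 reversed this, with 38.8 CPM in KO4 and 26.1 CPM in WT2, and with them the log2 fold change was -0.25 (adjusted p = 0.999). Its sign was negative under all 21 alternative settings, from -0.50 to -0.18.

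The promoters of the receptor, the transducer and the inhibitor are shown because these 3 genes had the smallest p of the 9. They are the 250 bases before the annotated start in RefSeq's table for GRCm38.p6, 5′ to 3′ on the gene's strand, and capitals mark GGGCGG or CCAAT boxes on either strand. The Ptch1 start in that table lies inside the GENCODE span of the gene given above, which holds transcripts that start farther upstream. The windows are chr13:63565736-63565985 minus for Ptch1, chr6:29735247-29735496 plus for Smo and chr19:46396646-46396895 plus for Sufu.
Ptch1: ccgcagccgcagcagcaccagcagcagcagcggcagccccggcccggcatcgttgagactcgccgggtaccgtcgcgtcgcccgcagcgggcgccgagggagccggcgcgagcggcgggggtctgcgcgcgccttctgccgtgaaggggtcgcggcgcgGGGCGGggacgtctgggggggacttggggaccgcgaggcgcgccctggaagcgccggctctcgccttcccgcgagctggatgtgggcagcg
Smo: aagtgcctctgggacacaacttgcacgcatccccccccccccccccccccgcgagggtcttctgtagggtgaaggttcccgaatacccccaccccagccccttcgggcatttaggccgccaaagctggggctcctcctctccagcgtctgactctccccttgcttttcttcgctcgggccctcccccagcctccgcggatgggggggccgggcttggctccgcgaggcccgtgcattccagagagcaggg
Sufu: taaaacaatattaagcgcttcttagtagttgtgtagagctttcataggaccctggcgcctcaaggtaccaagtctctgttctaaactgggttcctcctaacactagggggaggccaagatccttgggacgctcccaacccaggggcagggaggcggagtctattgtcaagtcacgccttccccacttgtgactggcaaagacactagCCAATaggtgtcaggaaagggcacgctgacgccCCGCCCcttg
Such a table entry was matched for 7 of the 9 genes, all but Gli1 and Boc, whose promoters were not searched. The Gli consensus GACCACCCA, searched on both strands, was in 0 of these 7 windows and in 0.225% of 32851 promoter windows of the same length. The SMAD palindrome GTCTAGAC was in 0 of 7 and 0.167%. Both motifs are so rare that 0 of 7 tells little about these genes. GGGCGG was in 6 of 7, all but Smo, and in 32.7% of all windows, while CCAAT was in 2 of 7 (Sufu and Gas1) and 33.8%. The Sufu window had a GC content of 54.0%, the lowest of the 7, and the Ptch1 window 78.4%, the highest. The median over promoters was 52.4%, below all 7 windows. The part of GC content in the count of GGGCGG was not tested.

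The Gli factors differed little in mean between the groups. Gli1, the activator whose transcript is the standard readout of the pathway (ENSMUSG00000025407.7, chromosome 10, 127329882 to 127341974, minus strand), had 15.8, 19.8, 25.6, 17.2 and 15.97 CPM in KO libraries 2, 3, 5, 6 and 8, against 19.2, 17.6, 18.3, 24.0 and 20.5 CPM in WT libraries 1, 3, 5, 6 and 7. The KO libraries fell on both sides of the WT range, with 3 below it and KO5 above it. The log2 fold change was -0.07 (SE 0.15, adjusted p = 0.802, exact permutation p = 0.556). KO4 had 24.1 CPM and WT2 14.3 CPM, and with them the sign turned (0.06), as it did with the GC trend removed (0.10).

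Gli2, the main activator (ENSMUSG00000048402.14, chromosome 1, 118834132 to 119053619, minus strand), ran from 29.2 to 39.4 CPM in KO and from 31.4 to 47.1 CPM in WT, with -0.06 as log2 fold change (SE 0.13, adjusted p = 0.825). Gli3, the main repressor (ENSMUSG00000021318.15, chromosome 13, 15463235 to 15730026, plus strand), ran from 4.46 to 7.66 CPM in KO and from 5.04 to 6.68 CPM in WT, with 0.05 as log2 fold change (SE 0.21, adjusted p = 0.908). The groups overlapped widely for both. The signs of both also turned between settings, each by small amounts: with all 12 libraries Gli2 was at 0.0051 and Gli3 at -0.03, and Gli2 was at 0.05 without WT6 and Gli3 at -0.07 without KO3. The kit does not mark strand, so reads in stretches shared with a gene on the opposite strand cannot be told apart: 188 exon bases of Gli3, 589 of Gas1, 175 of Hhip, and in Gli1 62 shared with Arhgap9 and 265 with an antisense RNA.

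**Figure D3:**
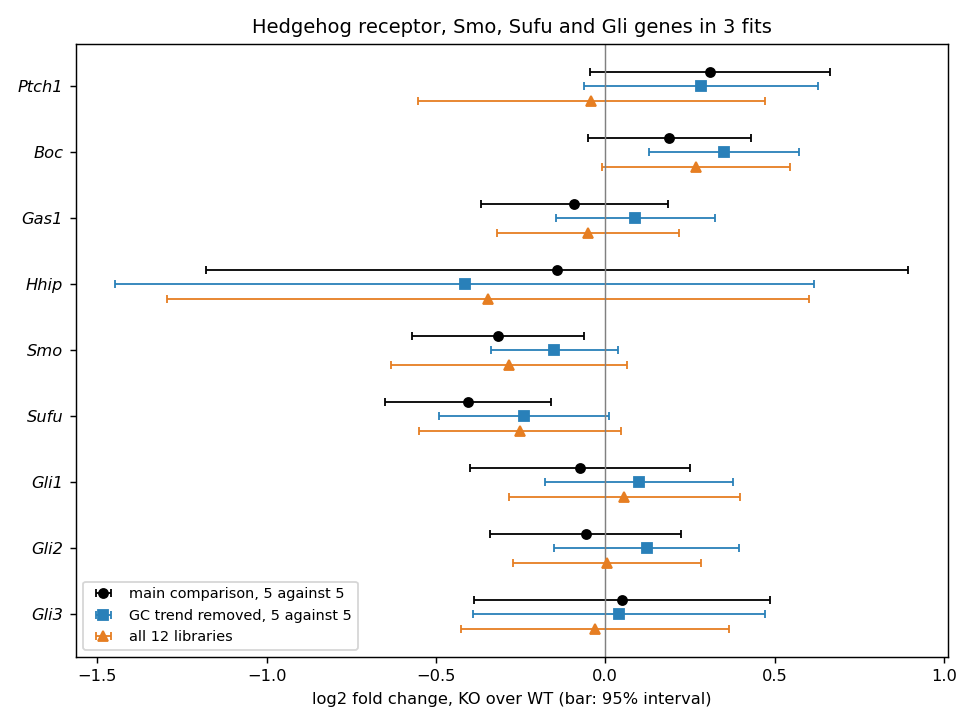
Log2 fold change of KO over WT with its 95% interval for each gene, from edgeR fits across all genes: the 5 against 5 comparison (circles), the same with each library's GC trend removed (squares) and all 12 libraries (triangles). Sufu and Smo are the genes whose interval excludes 0 in the first fit, Boc the one whose interval does so in the second, and none does in the third.

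Library composition moved with several of these genes. The dependence of expression on transcript GC content in a library was summarised as the fitted level at 57.9% GC minus that at 40.9%. It was -0.38, -0.40, 0.35, -0.0028 and -0.33 in KO libraries 2, 3, 5, 6 and 8, against 0.25, 0.06, 0.21, 0.49 and 0.26 in WT libraries 1, 3, 5, 6 and 7, with KO4 at 0.36 and WT2 at -0.86. The trend was thus negative in WT2 and in all KO libraries of the comparison but KO5, with KO6 close to 0, and positive in KO4 and in all WT libraries of the comparison. Transcripts of Gli1, Gas1, Smo, Gli2, Boc and Sufu have 55.8% to 59.0% GC, against 47.8% in Ptch1, 48.4% in Gli3 and 41.2% in Hhip; the median of tested genes was 49.3%. Across the 12 libraries, Gli1 followed the trend upward (Pearson r = 0.81, permutation p = 0.00116, adjusted over the 9 genes 0.00522; Spearman rho = 0.83, permutation p = 0.00154, adjusted 0.0139). Ptch1 followed it downward (r = -0.89, permutation p = 3.2e-04, adjusted 0.00288; rho = -0.74, permutation p = 0.00841, adjusted 0.0261). Without KO3 and WT2, the libraries farthest from the median trend, r was 0.88 for Gli1 and -0.73 for Ptch1. For Smo and Sufu r was 0.68 and 0.69 (permutation p = 0.0157 and 0.0132, adjusted 0.0354 for each; rho = 0.59 and 0.69 with permutation p = 0.0457 and 0.0165, adjusted 0.0822 and 0.0371), and 0.46 and 0.48 without those libraries. Gas1 had r = 0.64 (permutation p = 0.0238, adjusted 0.0428; rho = 0.73, permutation p = 0.00869, adjusted 0.0261; r = 0.79 without them), and Gli2, Gli3, Hhip and Boc had r between -0.30 and 0.36 with adjusted permutation p of 0.371 or more. Without KO3 and WT2 these 4 had r between 0.04 and 0.51, with Gli3 at 0.51 in place of -0.30. The trend was fitted on the genes of these same libraries, so transcripts near 57.9% GC tend to rise with it by construction. The permutations also shuffled all 12 libraries without keeping KO and WT apart. The p-values are therefore a description and not independent evidence of a link.

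With the GC trend removed, the log2 fold change of Smo was -0.15 (SE 0.09, adjusted p = 0.421) and that of Sufu -0.24 (SE 0.12, adjusted p = 0.343), against -0.32 and -0.40 before. Ptch1 stayed at 0.28 (SE 0.16, adjusted p = 0.407). Boc moved to 0.35 (95% interval 0.13 to 0.57, adjusted p = 0.177), against 0.19 before, and Hhip to -0.42 (SE 0.50, adjusted p = 0.716), against -0.14 before, while Gli1, Gli2 and Gas1 took positive signs (0.10, 0.12 and 0.09, adjusted p = 0.760, 0.679 and 0.738). The median over the 9 genes was then 0.09, and 0 of them passed, where 0.0372% of all genes did.

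**Figure D4:**
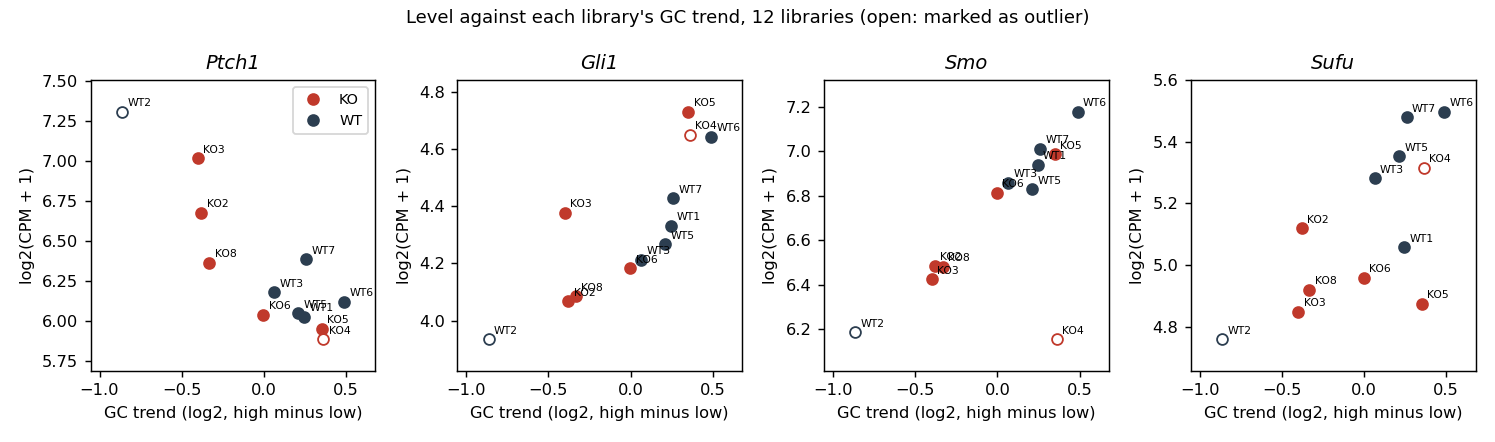
Level of Ptch1, Gli1, Smo and Sufu (log2 of CPM plus 1) in each of the 12 libraries against the library's GC trend (fitted log2 level at high minus low GC content); open points are the libraries marked as outliers. Ptch1 is high where the trend is negative (WT2, KO3, KO2), Gli1 and Smo are mostly low there, and KO4 lies far below the other libraries of similar trend for Smo.

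Within a library, the ratio of Ptch1 to Smo per exon kb carries both. It was 0.453, 0.601, 0.192, 0.231 and 0.366 in KO libraries 2, 3, 5, 6 and 8, against 0.189 to 0.256 in the WT libraries. KO2, KO3 and KO8, the KO libraries with the most negative GC trends, stood above the WT range, and KO5 and KO6 lay within it; WT2, with the most negative trend, had 0.870. The part of the trend in this ratio was not tested.

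The rest of the pathway was read from 3 lists chosen by role. Of 14 genes for ligands, ligand release and other surface proteins, 7 passed the filter on low counts and 0 were called in edgeR's test. At an unadjusted p under 0.05, 1 was higher and 0 were lower, beside 11.8% higher and 9.97% lower over all genes. DESeq2 called 0, beside 4.71% of all genes, but it gave no adjusted p to 10 of the 14. Shh itself was too low to test, with 0 to 7 counts in each KO library and 1 to 6 in each WT library. Mosmo, which lowers Smo at the membrane, averaged 52.3 ± 12.9 CPM in KO and 37.9 ± 4.36 CPM in WT (log2 fold change 0.47, SE 0.15, adjusted p = 0.137). The co-receptor Cdon was at 1.32 ± 0.763 CPM in KO and 0.972 ± 0.442 CPM in WT (0.43, SE 0.49, adjusted p = 0.628), so of the Boc, Gas1 and Cdon co-receptors it was the scarce one. Hhat, which attaches palmitate to Shh, and Disp1, which releases Shh from cells, had log2 fold changes of 0.19 and -0.08, with adjusted p of 0.682 and 0.909.

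Of 43 genes of cilium traffic and signal transduction, 42 were tested and 0 were called, while 3 had an unadjusted p under 0.05 and were higher and 9 such genes were lower, beside 11.8% higher and 9.97% lower over all genes; DESeq2 called 3, beside 4.71% of all genes. The median log2 fold change was -0.07. Btrc, the ubiquitin ligase adaptor that directs processing of Gli3, averaged 7.998 ± 2.43 CPM in KO and 13.8 ± 1.35 CPM in WT (log2 fold change -0.79, SE 0.19, adjusted p = 0.124). Every KO library except KO5 was below the WT libraries, and WT2, at 4.85 CPM, was below KO4, at 11.8 CPM. Gnas, the stimulatory G protein subunit that restrains the pathway through cyclic AMP, averaged 22.003 ± 4.45 CPM in KO and 32.6 ± 4.70 CPM in WT (-0.56, SE 0.15, adjusted p = 0.129). Adcy6, an adenylyl cyclase, averaged 6.34 ± 1.59 CPM in KO and 10.4 ± 2.43 CPM in WT (-0.70, SE 0.21, adjusted p = 0.131). DESeq2 gave Btrc, Gnas and Adcy6 adjusted p of 0.0176, 0.0261 and 0.0456. Grk2, a kinase that phosphorylates Smo, was at 60.1 ± 10.1 CPM in KO and 75.2 ± 5.97 CPM in WT (-0.32, adjusted p = 0.155). The ubiquitin ligase genes Itch and Cul3 had the opposite sign, 84.7 ± 14.1 CPM in KO and 67.0 ± 6.93 CPM in WT for Itch (0.34, adjusted p = 0.151), and 332 ± 83.9 CPM in KO and 255 ± 25.8 CPM in WT for Cul3 (0.38, adjusted p = 0.178). Gpr161, a ciliary receptor that keeps the pathway off, and the cilium tip kinesin Kif7 had log2 fold changes of 0.11 and 0.02 (adjusted p = 0.695 and 0.965). Spop, which marks Gli proteins for degradation, and Prkaca, the catalytic subunit of protein kinase A, had -0.18 and -0.22 (adjusted p = 0.371 and 0.269). Without KO5, 15 of the 42 passed, where 22.9% of all genes did.

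Of 26 targets and effectors in granule precursors, 25 were tested and 0 were called, while 5 with an unadjusted p under 0.05 were higher and 1 was lower, beside 11.8% higher and 9.97% lower over all genes. DESeq2 called 2 (Sox9 and Mycn), beside 4.71% of all genes. With quality weights on 12 libraries, limma voom called 1 (Sox9), beside 4 of all 13318 genes in that fit. The median log2 fold change was 0.03. Sox9, a factor of progenitors that Bergmann glia also express, averaged 80.4 ± 11.1 CPM in KO and 53.2 ± 8.98 CPM in WT (log2 fold change 0.60, SE 0.13, adjusted p = 0.124; DESeq2 adjusted p = 0.00911), with 82.3 CPM in KO4 and 84.7 CPM in WT2. Mycn, the Shh target that drives precursor division, was at 327, 357, 342, 306 and 344 CPM in KO libraries 2, 3, 5, 6 and 8, against 230, 311, 258, 244 and 274 CPM in WT libraries 1, 3, 5, 6 and 7. All KO libraries but KO6 lay above every WT library (log2 fold change 0.35, SE 0.10, adjusted p = 0.131), and KO4 and WT2 were alike at 339 and 355 CPM. Without KO5 Mycn passed (0.34, adjusted p = 0.0141), as did 22.9% of all genes in that fit. Of the 26 targets and effectors, 4 passed there. Of the other targets, Bmi1, a Polycomb protein needed for precursor growth, averaged 646 ± 168 CPM in KO and 486 ± 97.3 CPM in WT (0.41, adjusted p = 0.194). The kinase gene Cdk6 averaged 57.4 ± 10.6 CPM in KO and 45.9 ± 6.61 CPM in WT (0.33, adjusted p = 0.182), and Hes1, a transcriptional repressor, 5.75 ± 1.49 CPM in KO and 3.76 ± 1.14 CPM in WT (0.59, adjusted p = 0.199). Nhlh1, a factor of early granule neurons, averaged 56.0 ± 15.1 CPM in KO and 70.0 ± 6.67 CPM in WT (-0.32, adjusted p = 0.226). Among cyclins, the log2 fold change was -0.19 (SE 0.17) for Ccnd1 and 0.0066 (SE 0.11) for Ccnd2, and Atoh1, the factor that defines these precursors, had 0.06 (SE 0.12); with library size alone as scaling, Ccnd2 and Atoh1 turned negative. In the 5 against 5 comparison Ptch1 and Mycn had positive signs and Gli1 and Hhip negative ones. With all 12 libraries Ptch1 and Gli1 changed sign.

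Markers place the tissue and its neighbours. The 8 granule precursor markers were all measured and summed to 3797 to 7230 CPM in KO and 3263 to 5490 CPM in WT. Neurod1 alone averaged 3628 CPM in KO and 2582 CPM in WT, whereas Atoh1 averaged 95.8 CPM in KO and 92.2 CPM in WT. Of the 8 markers, 2 (Pax6 and Neurod1) were higher in KO at an unadjusted p under 0.05 and 1 (Barhl1) was lower. Over all genes, 11.8% were higher and 9.97% lower by that measure. Of 11 Bergmann glia and astrocyte markers, cells that also respond to Shh, all 11 were tested and 3 were higher in KO at an unadjusted p under 0.05; they summed to 914 to 1486 CPM in KO and 673 to 1132 CPM in WT, with 966 CPM in KO4 and 2299 CPM in WT2. Of 10 Purkinje cell markers 9 were tested and 4 were higher, with sums of 416 to 680 CPM in KO, 350 to 461 CPM in WT, 396 CPM in KO4 and 827 CPM in WT2. Meningeal and fibroblast markers summed to 456 to 875 CPM in KO and 470 to 838 CPM in WT, with 1 of 9 tested higher. Of the oligodendrocyte lineage markers 3 of 6 tested were lower in KO (sums of 293 to 314 CPM in KO, 302 to 370 CPM in WT), and of the inhibitory neuron markers 2 of 4 tested were higher and 1 lower (91.2 to 137 CPM in KO, 94.1 to 113 CPM in WT). Endothelial markers (297 to 412 CPM in KO, 280 to 379 CPM in WT), microglial markers (20.7 to 34.3 CPM in KO, 23.4 to 29.4 CPM in WT) and erythroid markers (413 to 701 CPM in KO, 364 to 680 CPM in WT) had 0 genes at an unadjusted p under 0.05. Of the markers, 0 were called by edgeR over all genes. DESeq2 called 2 Purkinje cell, 1 granule precursor and 1 oligodendrocyte marker, beside 4.71% of all genes. It gave no adjusted p to 2 of the 10 Purkinje cell and 5 of the 7 oligodendrocyte markers. No marker list had a gene at 0 in all 10 libraries. WT2, which had the highest Ptch1, also had the highest sums of the Purkinje markers and of the Bergmann glia and astrocyte markers. Fabp7 alone made up 1519 CPM of the latter sum in WT2. Slc1a3, Aqp4, Sparcl1, Ptprz1 and Slc1a2 were also higher in WT2 than in the 5 other WT libraries. Gfap, Hopx, Aldoc and Hepacam were lower there than in all 5, and Gdf10 lay within their range. The oligodendrocyte sum in WT2, 336 CPM, lay within the WT range. The part of these cells in the values of the 9 genes was not tested.

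As a description over the 10 libraries of the comparison, which share depth and GC trend within a library, the named protein-coding genes with the most similar pattern of log2 CPM were listed for each gene. For Gli1 these were the chemokine receptor Cxcr4 (Pearson r = 0.96) and Selenom (0.95), for Gli2 Secisbp2 (0.98) and Egln3 (0.92), and for Gli3 the chaperone Hspa5 (0.92) and Sult1a1 (0.90). For Ptch1 they were the checkpoint kinase Chek1 (0.97) and Gpbp1 (0.97), for Smo Sgta (0.99) and Lrrc59 (0.98), and for Sufu Pigb (0.94) and Tnfaip8l3 (0.92). Boc ran with Fut8 (0.93) and Plac8 (0.93), Gas1 with Fbln1 (0.97) and Jmjd4 (0.97), and Hhip with Hnrnpul1 (0.88) and Ccm2 (0.87). The nearest genes did not include another of the 9. They are the highest of all tested genes searched over 10 libraries, so a high r comes in part from the search. Egln3, Sult1a1, Plac8 and Tnfaip8l3 also had low levels, with group means of 0.903 to 1.99 CPM. The closest pair among the 9 was Gli1 and Gas1 (r = 0.88, Spearman rho = 0.89). The most opposed pair was Ptch1 and Smo (r = -0.74), with a weaker rank correlation (Spearman rho = -0.48).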

How the data were processed

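The authors deposited raw gene counts, a separate HTSeq table for each library. The submitters' processing notes list STAR 2.5.3a, HTSeq 0.6.1, cutadapt 1.16, DESeq2 and build mm10, without settings, annotation release or strand mode. Per the labels' protocols, RNA came from a column kit for small amounts and libraries from a kit that does not mark strand. Summary rows were left out; reads outside genes made up 10.8% to 14.7% of uniquely mapped ones, and ambiguous reads 6.81% to 8.13%. Reads placed in several sites were 64.4% to 67.6% of records. Of the gene identifiers, 53274 matched GENCODE M21 (GRCm38), which gave symbols, exon lengths and positions.

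Groups followed the titles. Genes were filtered with filterByExpr (minimum count 10), scaled by TMM and tested with edgeR 4.0.16 (limma 3.58.1, DESeq2 1.42.0, R 4.3.3; SciPy 1.17.1), with 95% intervals from the quasi-likelihood fit. Printed CPM used factors over all 12 libraries. GC trends were natural splines with 5 degrees of freedom, entered as offsets. Correlation p-values came from seeded permutations. The fits were tested on simulated data. Within groups, no pair of libraries looked like a copy: chi-square over degrees of freedom was 6.15 to 85.3 in 30 pairs. The genes named are the 9, Skil, the 6 of smallest p per list, a few pathway genes named whatever their p, and the 2 most similar per gene; some results under this rule are not reported here. The 9 genes and the lists were chosen with earlier results of these data known. Intervals cover the spread between libraries.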

Additional observations from a re-analysis of the deposited data

Results flagged for a closer look

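In 36 sets of values (the 9 genes in the 5 and the 6 libraries of each group), 3 had a highest value that stood apart from the rest by more than Dixon's 95% critical value. Chance flags about 1 set in 20, and the sets of 5 and 6 share libraries. Ptch1 in WT2 was at 158 CPM, with the next WT library at 82.7 CPM. Hhip in WT6 was at 3.34 CPM, with the next of the 5 WT libraries at 1.08 CPM. Boc in WT6 was at 70.9 CPM, with the next of the 5 WT libraries at 58.3 CPM. WT2 is the library that the submitters marked, and WT6 is the one with the fewest gene counts and the most positive GC trend of the 12.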

How the results depend on the processing

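Of 189 values of the 9 genes over 21 settings, 158 kept their direction and side of the threshold, 26 changed sign and 5 passed the threshold only there. The 158 include Gli3 and Hhip in DESeq2, which kept their direction but had no adjusted p. The cause of the changes was not tested. Sufu, Smo and Boc kept their signs throughout. The number of genes called was 3 in the comparison, 470 with DESeq2, 965 with no filter beyond a count of 1, 5 with a GC offset, 1 with all 12 libraries, 0 with KO2 counted as wild type and 1598 with a GC offset without KO5 (chosen after seeing the data). It ran from 0 to 3102 when single libraries were left out, with 3102 without KO5 and 0 without KO2 or without WT7. The replicate numbers were not treated as pairs, since no label says what they share and deviations of numbers 3, 5 and 6 correlated at 0.11, -0.05 and 0.09, and 3 of 6 libraries correlated best with their own number. With the replicate block 0 genes were called, Sufu had -0.50, and signs changed for Gli1 (0.065), Gas1 (0.038), Disp1 (0.34) and Ccnd1 (0.027). Only numbers 3, 5 and 6 occur in both groups of the comparison, so the KO effect in that fit rests on those libraries alone. Other log2 fold changes of changed sign were as follows. With all 12 libraries they were 0.057 for Gli1, 0.0051 for Gli2, -0.032 for Gli3, -0.041 for Ptch1 and -0.32 for Cdon. With a GC offset they were 0.099 for Gli1, 0.12 for Gli2, 0.089 for Gas1, 0.058 for Disp1 and -0.039 for Ccnd2. With both they were 0.12 for Gli1, 0.065 for Gli2, -0.036 for Gli3, -0.047 for Ptch1, 0.010 for Gas1, -0.32 for Cdon and -0.016 for Cul3. With a GC offset without KO5 they were 0.035 for Gli1, 0.14 for Gli2, 0.085 for Gas1 and -0.11 for Ccnd2. With KO2 as wild type they were 0.034 for Gli1, 0.18 for Disp1, -0.018 for Ccnd2 and -0.082 for Kif7. With library size alone they were -0.033 for Gli3, -0.074 for Ccnd2, -0.024 for Atoh1 and -0.057 for Kif7. With limma voom they were 0.0067 for Gli2, 0.30 for Hhip and -0.012 for Ccnd2. Leaving out single libraries gave ranges of -0.11 to 0.047 for Gli2, -0.066 to 0.14 for Gli3, -0.36 to 0.45 for Hhip, -0.16 to 0.013 for Gas1, -0.37 to 0.093 for Disp1, -0.064 to 0.067 for Ccnd2, -0.013 to 0.15 for Atoh1 and -0.12 to 0.12 for Kif7. Depth limits Hhip most, at 5 to 27 counts per library.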

Other observations

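The Gli factors kept similar proportions to each other. The length-scaled ratio of Gli1 to Gli2 was 0.739 ± 0.117 in KO and 0.761 ± 0.116 in WT (SD, n = 5 each), and that of Gli2 to Gli3 was 8.62 ± 1.71 in KO and 8.97 ± 0.624 in WT. The ratio of Sufu to Gli2 was 0.643 to 0.921 in the KO libraries and 0.837 to 1.23 in the WT libraries, with KO2 and KO6 inside the WT range and the others below it. The ratio of Ptch1 to Gli1, both targets of the pathway, was 2.26, 2.29, 0.839, 1.33 and 1.80 in KO libraries 2, 3, 5, 6 and 8, against 1.01 to 1.44 in the WT libraries and 3.88 in WT2.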
